A study of Mus musculus with 4 samples.

Results

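Imprinted genes are transcribed mainly or only from the copy inherited from 1 parent, and 40 known mouse imprinted genes were followed here by symbol among the 28440 rows of a count table of MMTV-R26Met mammary gland tumours. All 40 were in the table. Bulk poly-A RNA was sequenced from 4 tumours, numbered 1 to 4, of this 1 genotype. The mice serve to model triple-negative breast cancer: a Rosa26 transgene raises the receptor Met once MMTV-driven recombination, mainly in mammary epithelium, has turned it on. There was no normal, treated or control tissue, so the comparison made is between the tumours. The age of the mice and whether the tumours came from separate mice are not given in the labels, and p-values therefore describe the spread between these 4 samples.

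Imprinting is laid down by DNA methylation in the germ line, and it often acts over a whole domain in which paternally and maternally expressed genes sit side by side under a shared control region. Many paternally expressed genes, such as Igf2, Mest and Peg3, are known for promoting fetal growth or for roles in mesoderm and its derivatives, and several maternally expressed genes, such as H19, Grb10, Igf2r and Cdkn1c, are known for limiting growth. Most are high before birth and fall in adult tissue. The counts are per gene and carry no information on the parental allele, so "paternal" and "maternal" below name the allele known to be expressed in mouse, in some cases only in certain tissues (brain for Ube3a and Commd1, placenta for Ascl2). Of the 40 genes, 24 are paternally expressed, 15 maternally expressed and 1, Gnas, depends on the transcript. They fall into 20 loci, of which 8 hold more than 1 of the genes.

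Library totals ran from 35220504 to 42809015 counts. Levels are given as CPM, counts scaled to a common library size with TMM factors, in which 1 count equals 0.0235 to 0.0288 CPM. Epithelial markers (Epcam, Krt8, Krt18 and 5 others) summed to 2530, 3960, 3480 and 4270 CPM, and all 8 were lowest in tumour 1. Tumour 3 stood apart in 1 respect that touches several results below. Its 7 skeletal muscle markers (Acta1, Myh4, Ckm, Tnnt3, Des, Myog and Myod1) summed to 967 CPM, against 5.38 to 7.24 CPM in the other tumours, a 134-fold difference from the next. Every one of the 7 was highest in tumour 3, and Myod1, a defining factor of muscle cells, had 35 counts there and 0 in each of the other tumours. Adipocyte markers had the highest sum in tumour 3 as well (98.1 CPM, against 13.2 to 49.9 CPM), through Fabp4 (90.9 CPM), whereas the other 6, such as Adipoq, were highest in tumour 2. Fibroblast markers summed to 2790 to 3870 CPM, with the highest sum in tumour 4, but the single markers were split. Col1a1, Col1a2 and Lum were highest in tumour 4. Pdgfra, Col3a1 and Fap were highest in tumour 3, and Dcn, Dpt, Thy1 and Col6a3 in tumour 2. Neuron markers, of interest because several imprinted genes are neuronal, summed to 1.83 to 4.41 CPM, and Elavl3 had 0 counts in all tumours. In bulk RNA, fewer cells of a type and less RNA per cell cannot be told apart.

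The promoters of the genes whose levels differed between tumours are shown first where RefSeq (GRCm38.p6) gives a window of 250 bases before to 50 after a start site. Of the 40 genes, 33 had at least 1 window, 52 windows in all, and 7 had none, among them H19 and Peg10. Capitals mark TGCCGC on either strand (GCGGCA when read on the printed strand), the core of the sequence bound by ZFP57, a protein that keeps methylation at imprinted control regions. No other motif was searched. It was present in 12 of the 52 windows (23.1%) and in 11.6% of all 32851 windows of the table, or in 11 of 33 imprinted genes (33.3%) and 13.1% of all genes. The imprinted genes had 52 windows for 33 genes, and all genes 32851 for 27025. The shares per gene are thus not on equal terms, since more windows give more chances of a match. The windows of imprinted genes were also richer in CpG, with a median of 13.5 per 300 bases against 7 over all windows. Mest has an upstream window (chr6:30733256-30733555, plus strand) with no match and a downstream one (chr6:30737803-30738102, plus strand) with 2 matches and 17 CpG. The table holds the latter again shifted by 3 bases, with the same matches, and both count among the 52 windows and the 12 with the motif. Grb10 has a CpG-rich upstream window (chr11:12037371-12037670, minus strand, 45 CpG) with 1 match and a downstream one (chr11:12027922-12028221, minus strand, 9 CpG) with none. Usp29 (chr7:6730333-6730632, plus strand) and Peg3 (chr7:6730370-6730669, minus strand) are transcribed away from each other from starts 164 bases apart, so that their windows share 263 bases. Neither holds the motif. Presence of these letters is a description of sequence and says nothing of binding in these tumours.
Mest upstream: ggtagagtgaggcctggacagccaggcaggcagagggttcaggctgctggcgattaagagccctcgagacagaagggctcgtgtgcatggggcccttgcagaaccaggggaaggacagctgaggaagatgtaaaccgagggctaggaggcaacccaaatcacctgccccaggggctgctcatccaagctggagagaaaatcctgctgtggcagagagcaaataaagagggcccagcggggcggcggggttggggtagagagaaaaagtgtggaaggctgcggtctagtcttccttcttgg
Mest downstream: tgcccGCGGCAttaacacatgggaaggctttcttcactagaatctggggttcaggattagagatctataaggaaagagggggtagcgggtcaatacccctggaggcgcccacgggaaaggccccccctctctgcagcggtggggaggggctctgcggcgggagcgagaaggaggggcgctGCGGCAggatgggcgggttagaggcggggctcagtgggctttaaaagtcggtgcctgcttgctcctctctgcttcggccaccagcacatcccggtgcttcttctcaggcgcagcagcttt
Grb10 upstream: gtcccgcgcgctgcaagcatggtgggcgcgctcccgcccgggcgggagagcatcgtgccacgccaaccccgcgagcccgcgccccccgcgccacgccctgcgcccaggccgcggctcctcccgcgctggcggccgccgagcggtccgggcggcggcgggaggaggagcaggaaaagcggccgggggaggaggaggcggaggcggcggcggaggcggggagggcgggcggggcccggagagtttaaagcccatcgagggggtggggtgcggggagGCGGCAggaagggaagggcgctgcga
Grb10 downstream: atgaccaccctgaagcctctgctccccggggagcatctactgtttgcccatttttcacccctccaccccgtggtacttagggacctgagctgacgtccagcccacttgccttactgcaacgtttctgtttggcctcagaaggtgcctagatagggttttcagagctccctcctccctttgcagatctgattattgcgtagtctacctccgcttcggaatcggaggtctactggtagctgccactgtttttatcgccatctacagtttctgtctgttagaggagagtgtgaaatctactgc
Usp29: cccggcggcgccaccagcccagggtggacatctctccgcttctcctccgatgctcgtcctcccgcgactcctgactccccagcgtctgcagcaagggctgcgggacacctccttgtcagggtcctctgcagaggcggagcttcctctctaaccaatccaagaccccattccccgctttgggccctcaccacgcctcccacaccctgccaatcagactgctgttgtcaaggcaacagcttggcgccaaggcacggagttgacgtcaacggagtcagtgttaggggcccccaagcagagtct

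To ask which imprinted genes set tumours apart, each gene's spread between the tumours was compared with that of genes of like expression (edgeR, Benjamini-Hochberg over all genes, threshold 0.05). Of the 40 genes, 26 were tested, and 5 passed: Mest, Grb10, H19, Peg10 and Usp29. Over all 15808 genes tested, 3.63% passed. Another 3 of the 26 had an unadjusted p under 0.05 (Peg3, Sgce and Phlda2), a cut at which the share of all genes was not taken. From the highest to the lowest tumour, 10 of the 26 tested genes were over 4-fold apart, against 11.3% of all genes tested, and 10 were under 2-fold apart, against 63.9%. Their median log2 ratio of the highest to the lowest tumour was 1.22, against 0.78 over all genes tested, and 0.70 without tumour 3, against 0.59. The 40 genes were chosen with earlier results of these data known, so the shares in this paragraph are no result about imprinted genes in general. In the further list of imprinted genes given below, chosen likewise, 1 of 24 tested genes passed and the median was 0.77. Tumour 3 was the highest for 14 of the 26, against 29.7% of all genes, while tumours 1, 2 and 4 were the highest for 5, 4 and 3, against 22.9%, 18.9% and 28.5%. Tumour 4 was the lowest for 11, against 27.8%, and tumours 1, 2 and 3 for 3, 6 and 6, against 24.8%, 19.7% and 27.7%. Of the 14 tested paternal genes 3 passed and 8 were highest in tumour 3. Of the 11 tested maternal genes 2 passed and 5 were highest in tumour 3. Since the test needs about 10 counts in every library, genes that were nearly silent in 1 tumour, Igf2 among them, were not tested. With that minimum in 1 library only, chosen after seeing the data, 35 of the 40 were tested and 7 passed, against 5.01% of all genes. This filter admits genes through the tumour in which they are high, so the larger number is no support for a spread. Over all genes the other alternatives passed 3.64% (RLE scaling), 3.63% (library size alone), 3.79% (no count filter), 4.15% (mean of at least 5 CPM), 1.25% (Holm adjustment), and 2.58%, 2.52%, 2.58% and 2.29% (without tumours 1 to 4 in turn).

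**Figure D1:**
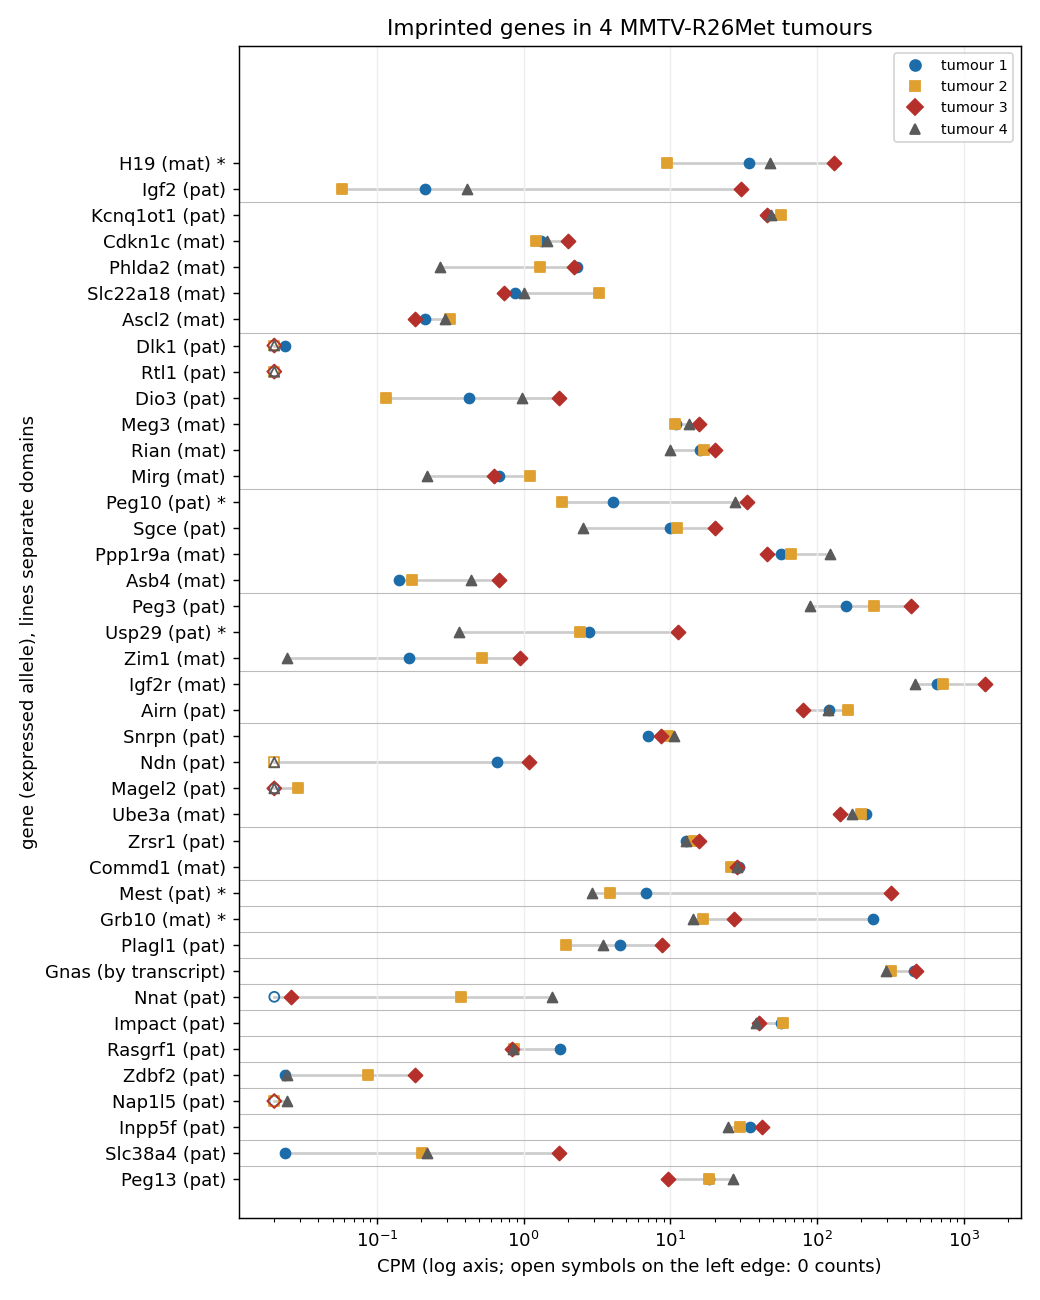
CPM of the 40 imprinted genes in each of the 4 tumours on a log axis, with 1 symbol per tumour, grey bars from the lowest to the highest tumour, horizontal lines between loci, and open symbols for 0 counts. Asterisks mark the 5 genes past the test (H19, Peg10, Usp29, Mest and Grb10), and tumour 3 lies far right of the others for Igf2 and Mest, as tumour 1 does for Grb10.

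**Figure D2:**
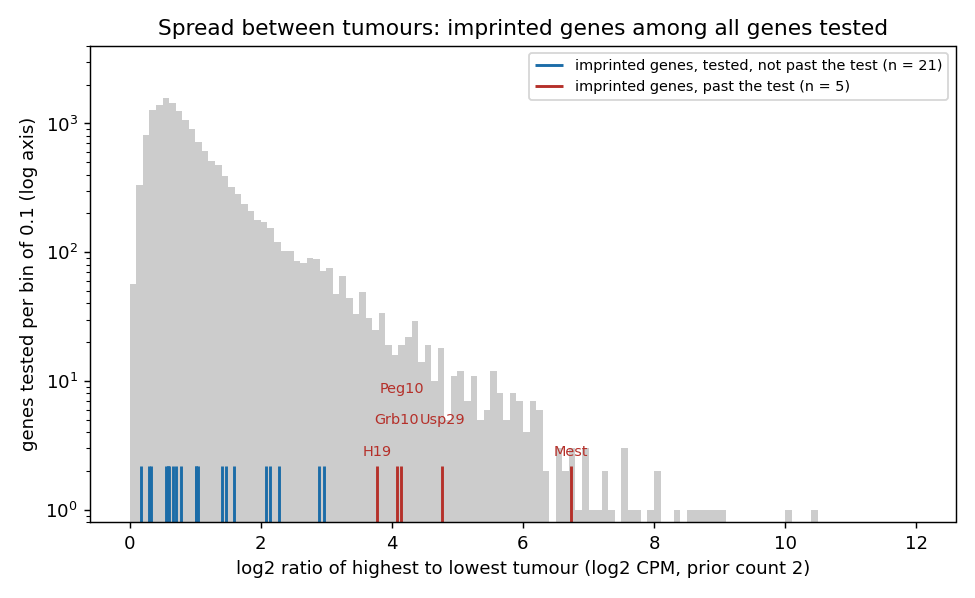
Log2 ratio of the highest to the lowest tumour for all 15808 genes tested (grey, both axes as labelled, counts per bin on a log axis) and for the 26 tested imprinted genes (ticks, with the 5 past the test in red and named). Mest lies at 6.73 and the other 4 named genes between 3.77 and 4.77.

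Mest had the widest spread of the tested imprinted genes. It encodes a hydrolase-like protein of mesoderm and lies on chromosome 6 (30733506 to 30748466, GRCm38). Its counts were 288, 135, 12131 and 120 in tumours 1 to 4, which correspond to 6.77, 3.89, 316 and 2.92 CPM. Tumour 3 stood 46.7-fold above the next tumour (edgeR adjusted p = 2.13e-25, n = 4). Mest was also the 1 imprinted gene that DESeq2 marked as a dispersion outlier, against 0.576% of all genes. The call rested on tumour 3, without which the adjusted p was 1. In GENCODE M21, 912 bases (23.1%) of Mest exon lie opposite exons of Copg2, the next gene, so reads there cannot be assigned without strand. Copg2 itself had 77.6, 66.1, 94.1 and 61.0 CPM, also highest in tumour 3 but with a far smaller range (edgeR adjusted p = 1). The muscle markers were high in the same tumour, and their part in the Mest level was not tested.

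At the H19-Igf2 domain both genes were highest in tumour 3. Igf2, the paternally expressed insulin-like growth factor of fetal life, lies on chromosome 7 (142650768 to 142666816) and had 9, 2, 1161 and 17 counts, or 0.212, 0.0577, 30.3 and 0.414 CPM. Tumour 3 was 73.1-fold above tumour 4, and the rest were close to the floor. Igf2 was too scarce for the main test. The count or CPM minimums that admit it do so through tumour 3, so no p is given from those. With no count filter, which keeps every gene with any count, Igf2 also passed, but its counts outside tumour 3 were only 2 to 17. H19, the maternally expressed non-coding RNA that shares enhancers with Igf2, had 1454, 330, 5013 and 1971 counts, or 34.2, 9.52, 131 and 48.0 CPM (edgeR adjusted p = 0.000455). Unlike Igf2, it was well expressed in all tumours, and the tumours formed a graded series with tumour 2 lowest and tumour 3 highest. The H19 call was lost without tumour 2 (adjusted p = 0.438) or tumour 3 (0.143). H19 made up 99.1 to 99.4% of the pair's counts in tumours 1, 2 and 4 and 81.2% in tumour 3 (95% exact binomial interval 80.2 to 82.2%, counting error only). Both genes of the domain thus stood at their highest in tumour 3, and the balance of their counts was different there. Muscle markers were high in that tumour too, and whether they bear on Igf2 and H19 was not tested. In GENCODE, 62.8% of Igf2 exon is shared with the same-strand gene Gm49394, so the split of reads between these 2 annotations is uncertain.

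H19, Igf2 and Mest hold mature microRNAs, which poly-A counts per gene do not measure. The sequences are shown because these hosts carry the results on Mest and on the H19-Igf2 domain. Usp29 holds another microRNA gene (Mir3099), and further microRNA genes lie within the spans of Meg3, Rian, Mirg and Rtl1. Capitals mark the seed, bases 2 to 8, and the 6 seeds are all distinct. The first pair lies in H19, the second in Igf2 and the third in Mest (RefSeq, GRCm38.p6).
mmu-miR-675-5p: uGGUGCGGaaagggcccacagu
mmu-miR-675-3p: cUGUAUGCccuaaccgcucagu
mmu-miR-483-5p: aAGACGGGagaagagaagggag
mmu-miR-483-3p: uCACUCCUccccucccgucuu
mmu-miR-335-5p: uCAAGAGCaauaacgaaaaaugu
mmu-miR-335-3p: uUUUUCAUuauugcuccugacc

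**Figure D3:**
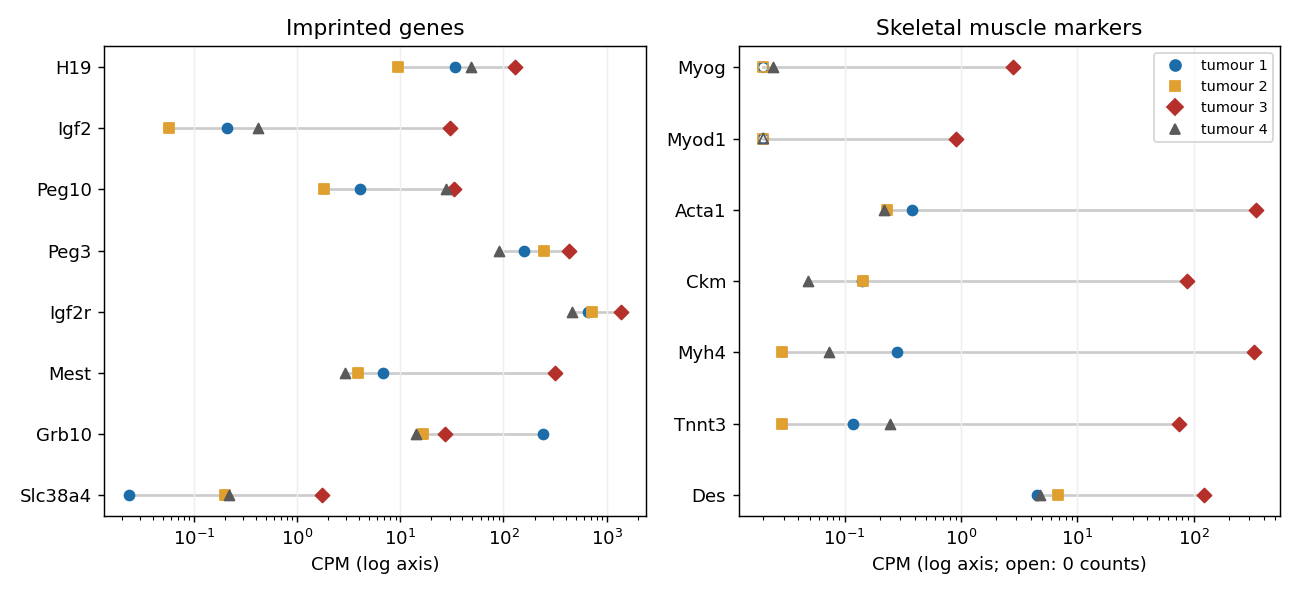
CPM on log axes of 8 imprinted genes (left) and of the 7 skeletal muscle markers (right), with 1 symbol per tumour, grey bars from the lowest to the highest tumour and open symbols for 0 counts. Tumour 3 is highest for every muscle marker and for 7 of the 8 imprinted genes, the exception being Grb10, which is highest in tumour 1 at 239 CPM. The 8 were picked by hand, so that count is no result about imprinted genes. Of the 26 tested imprinted genes, 14 were highest in tumour 3, against 29.7% of all genes tested.

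Igf2r, the maternally expressed receptor that binds Igf2 for breakdown in lysosomes, was abundant throughout, at 654, 714, 1389.5 and 461 CPM. Tumour 3 was again the highest, 1.95-fold above tumour 2, but the spread did not pass (edgeR adjusted p = 1). Airn, the paternally expressed antisense RNA that silences Igf2r on the paternal copy, had 120.3, 162, 80.0 and 119 CPM and was lowest in tumour 3 (edgeR adjusted p = 1). The order of the tumours for Airn was thus not that for Igf2r. Igf2r made up 94.6% of the pair's counts in tumour 3 and 79.5 to 84.5% in the others. Airn starts inside Igf2r, on the opposite strand, and no source used here gives the use of strand in counting, so unspliced Igf2r reads and Airn reads cannot be told apart.

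Grb10 was the imprinted gene that set tumour 1 apart. It encodes an adaptor that restrains insulin and IGF receptor signalling and is maternally expressed outside neurons (chromosome 11, 11930499 to 12037428). Counts were 10165, 576, 1043 and 581, or 239, 16.6, 27.2 and 14.15 CPM. Tumour 1 stood 8.79-fold above tumour 3, the next (edgeR adjusted p = 4.06e-09). Without tumour 1 the adjusted p was 1. Pericyte markers also had their highest sum in tumour 1, at 465 CPM against 272 to 342 CPM, a far smaller difference. Of the 6, 0 passed, against 3.63% of all genes tested (edgeR, 1 with an unadjusted p under 0.05, Kcnj8, and 0 marked by DESeq2). Cspg4 and Notch3 were highest in tumour 3, and Notch3 was lowest in tumour 1. Endothelial markers summed highest in tumour 1 too (221 CPM against 164 to 196 CPM). Of these, Kdr, Tek and Emcn were highest in tumour 3 and Vwf in tumour 4. All 8 epithelial markers were lowest in tumour 1, with Krt19 at 11.6, 147, 40.8 and 370 CPM (edgeR adjusted p = 1.96e-08) and Cldn4 at 0 counts there. The part of any of these marker lists in the Grb10 level was not tested.

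In the Peg10-Sgce domain of chromosome 6, genes side by side took different orders of the tumours. Peg10, a paternally expressed gene derived from a retrotransposon and known for its role in placenta, had 174, 63, 1267 and 1128 counts, or 4.09, 1.82, 33.0 and 27.5 CPM. Tumours 3 and 4 were high and tumours 1 and 2 low (edgeR adjusted p = 0.000525, and 0.15 without tumour 2). Sgce, a paternally expressed sarcoglycan that is transcribed away from Peg10 with its start close by (Sgce is annotated up to base 4747204 on the minus strand and Peg10 from 4747306 on the plus strand), had 9.995, 11.02, 20.2 and 2.53 CPM. Tumour 3 was highest and tumour 4 lowest, and the spread did not pass (edgeR adjusted p = 0.519). Peg10 therefore made up 62.1% of the pair's counts in tumour 3 and 91.6% in tumour 4 (95% exact binomial interval 89.9 to 93.1%), but 29.0% and 14.2% in tumours 1 and 2. Ppp1r9a, a neuronal actin-binding regulator of protein phosphatase 1 that is maternally expressed in some tissues, had 56.4, 66.8, 45.8 and 122 CPM, highest in tumour 4 and lowest in tumour 3 (edgeR adjusted p = 1). Asb4, a maternally expressed substrate adaptor of ubiquitin ligases, had 6, 6, 26 and 18 counts and was not tested.

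The Peg3 domain of chromosome 7 was highest in tumour 3 and lowest in tumour 4 for both of its tested genes. Peg3, a paternally expressed zinc finger protein of growth control and maternal behaviour, had 157, 245, 436 and 89.6 CPM and did not pass (edgeR adjusted p = 0.175). Usp29, a paternally expressed ubiquitin protease that shares the divergent promoter shown above, had 119, 84, 434 and 15 counts, or 2.80, 2.42, 11.3 and 0.365 CPM (edgeR adjusted p = 0.0174). Tumour 3 was 4.04-fold above tumour 1, and tumour 4 was 6.63-fold below the next. The Usp29 call depended on both extremes, with an adjusted p of 0.325 without tumour 3 and 0.615 without tumour 4, and on the filter (0.141 with no count filter and 0.12 with the count minimum in 1 library). Zim1, the maternally expressed zinc finger gene of the domain, had 7, 18, 36 and 1 counts, with the same highest and lowest tumours, and was not tested. Peg3 held 97.5 to 99.6% of the counts of the Peg3 and Usp29 pair.

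**Figure D4:**
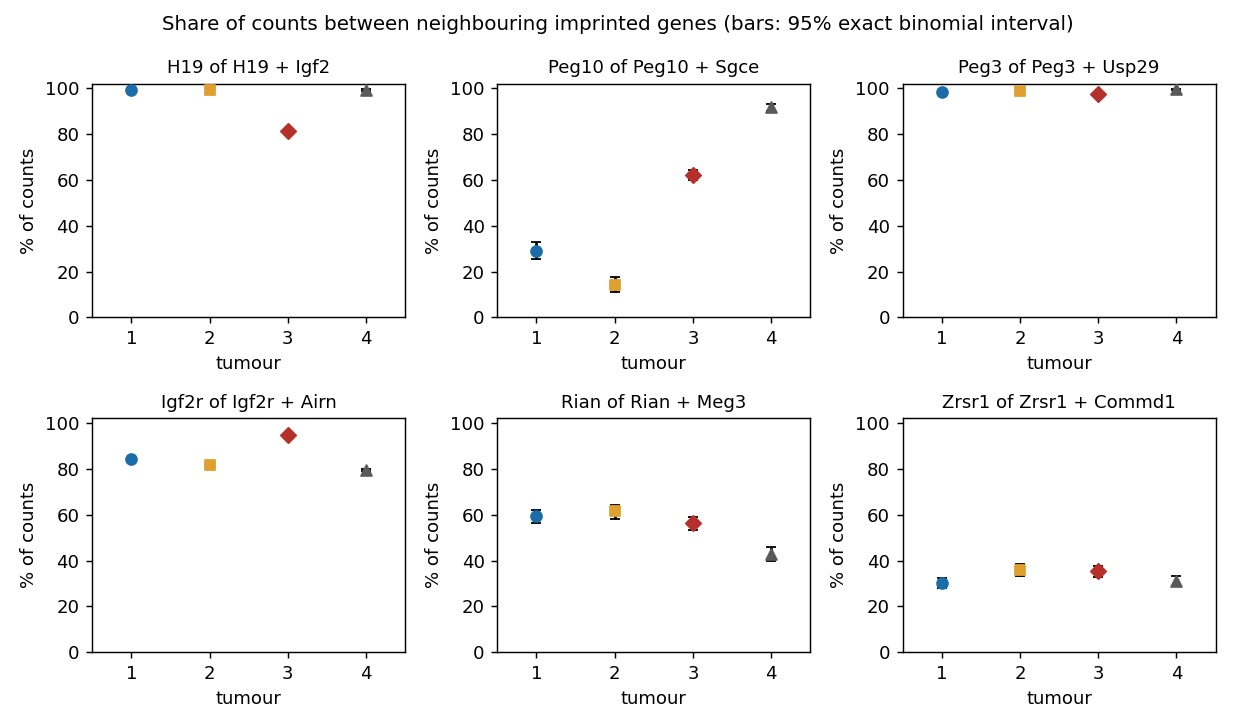
Share of counts taken by the first gene of 6 pairs of neighbouring imprinted genes in each tumour (percent, linear axes from 0), with 95% exact binomial intervals that cover counting error only. The Peg10 share runs from 14.2 to 91.6% and the H19 share is lowest in tumour 3 (81.2%), while the Zrsr1 share stays between 30.4 and 35.8%.

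In the Dlk1-Dio3 domain of chromosome 12, Dlk1 and Rtl1 were at or near 0 counts and the other 4 genes were detected in every tumour. Of the maternally expressed non-coding RNAs, Meg3 stood at 10.9, 10.7, 15.8 and 13.4 CPM and Rian, a host of small nucleolar RNAs, at 15.9, 17.0, 20.2 and 10.01 CPM. Neither passed (edgeR adjusted p = 1 for both), and both were highest in tumour 3. Mirg, the downstream host of a microRNA cluster, had 29, 38, 24 and 9 counts. On the paternal side, Dlk1, a Notch-like ligand of fetal tissue, had 1 count in tumour 1 and 0 in the others, where a count of 0 leaves room for up to 3 counts (0.0731 to 0.0865 CPM). Rtl1, a retrotransposon-derived gene of placenta and muscle, had 0 counts in all tumours. As for Dlk1, a count of 0 leaves room for up to 3 counts, and any link of Rtl1 to the muscle markers of tumour 3 was not tested. Dio3, which inactivates thyroid hormone, had 18, 4, 67 and 40 counts and was not tested. Its level was 1.75 CPM in tumour 3, 15.1-fold above tumour 2.

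Of the 4 tested genes of the Kcnq1 domain, 0 passed (edgeR, 1 with an unadjusted p under 0.05, Phlda2, and 0 marked by DESeq2). Over all genes tested 3.63% passed, a share at which 0 of 4 is no result about the domain. Kcnq1ot1, the paternally expressed antisense RNA that silences the domain, had 45.5, 57.1, 45.8 and 48.3 CPM, within 1.25-fold. Cdkn1c, the maternally expressed inhibitor of cyclin-dependent kinases, had 1.32, 1.21, 2.01 and 1.44 CPM, low in every tumour (edgeR adjusted p = 1). Phlda2, a maternally expressed restraint on placental growth, had 2.30, 1.30, 2.22 and 0.268 CPM, lowest in tumour 4 (edgeR adjusted p = 0.42). Slc22a18, a membrane transporter, had 0.870, 3.26, 0.730 and 0.999 CPM, highest in tumour 2 (edgeR adjusted p = 0.776). Ascl2, a transcription factor of trophoblast, stayed at 7 to 12 counts and was not tested. The 30.7% of Cdkn1c exon that lies opposite Gm44732 adds uncertainty to its low counts.

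In the Snrpn-Ube3a domain, the mouse counterpart of the Prader-Willi and Angelman region, the broadly expressed genes differed by at most 1.5-fold between tumours. Snrpn, a paternally expressed splicing protein, had 7.06, 9.66, 8.65 and 10.6 CPM, and Ube3a, a ubiquitin ligase with maternal expression in neurons, had 215, 198.5, 143 and 173.5 CPM (edgeR adjusted p = 1 for both). The neuronal members were scarce. Magel2 had 1 count in tumour 2 and 0 in the others. Ndn, a paternally expressed growth suppressor of the MAGE family, had 28 and 42 counts in tumours 1 and 3 and 0 in tumours 2 and 4. Tumour 3, at 1.09 CPM, was at least 12.7-fold above a library at 0, taken at its floor of 3 counts. Ndn was not tested.

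Of the remaining loci, most broadly expressed genes differed little. Gnas, which encodes the stimulatory G protein subunit and several transcripts of differing imprint, had 455, 319, 469.9 and 296 CPM. Impact, a regulator of translation, had 56.7, 58.2, 40.4 and 38.5 CPM, and Inpp5f, a phosphoinositide phosphatase with a paternally expressed short form, had 34.7, 29.7, 42.1 and 24.5 CPM. These 3 genes stayed within 1.72-fold. Zrsr1, a retroposed splicing factor in an intron of Commd1, had 12.7, 14.4, 15.6 and 12.8 CPM, and its host, a copper and NF-kappaB regulator, had 29.1, 25.8, 28.5 and 28.6 CPM. At 1.13-fold Commd1 was the steadiest of the tested imprinted genes. Peg13, a paternally expressed non-coding RNA inside Trappc9, ranged more widely, at 18.25, 18.3, 9.62 and 26.8 CPM, while Trappc9 had 55.4 to 72.7 CPM. Plagl1, a zinc finger regulator of other imprinted genes, had 4.54, 1.93, 8.71 and 3.46 CPM, again highest in tumour 3. Rasgrf1, a Ras exchange factor, had 1.76, 0.865, 0.834 and 0.852 CPM, highest in tumour 1. All of these had an edgeR adjusted p of 1.

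The other untested genes were close to silent or high in 1 tumour only. Slc38a4, an amino acid transporter of placenta and liver, had 1, 7, 67 and 9 counts, 7.97-fold higher in tumour 3 than in the next. Nnat, a paternally expressed membrane proteolipid in an intron of Blcap, had 0, 13, 1 and 64 counts, and tumour 4 was at least 22.1-fold above tumour 1 at its floor. Its host Blcap was also highest in tumour 4, at 63.3 CPM against 34.8 to 37.7 CPM, and did not pass (edgeR adjusted p = 1). Zdbf2 had 1 to 7 counts and Nap1l5 had 1 count in tumour 4 and 0 elsewhere.

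Levels of different genes were compared per kilobase of GENCODE M21 exon, leaving out Airn and Kcnq1ot1, which are largely unspliced and whose exon length is uncertain. By mean CPM per kilobase, Igf2r (86.4) and Gnas (34.4) led, followed by H19 (22.6), Mest (20.9) and Peg3 (17.4). The order was not the same in every tumour. In tumour 3 it was Igf2r (149), Mest (80.2), H19 (53.1), Gnas (42.0) and Peg3 (32.7 CPM per kilobase). In tumour 1 it was Igf2r (70.2), Gnas (40.7), Grb10 (26.3), H19 (13.9) and Peg3 (11.8 CPM per kilobase). Mest, by contrast, stood at 0.741 to 1.72 CPM per kilobase in tumours 1, 2 and 4.

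Of a further list of 37 genes reported as imprinted in mouse, 36 were in the table, 24 were tested and 1 passed, near the 3.63% of all genes tested. This was Sfmbt2, a Polycomb-group gene that is paternally expressed in placenta, which had 36.5, 0.750, 13.03 and 19.2 CPM, lowest in tumour 2 (edgeR adjusted p = 0.000224, and 1 without tumour 2). The most abundant of the list was Cd81, a tetraspanin, at 336 ± 73.6 CPM (SD, n = 4). The list's median log2 ratio of the highest to the lowest tumour was 0.77, against 0.78 over all genes tested. Copg2, next to Mest, and Casd1, Pon2 and Pon3, next to Peg10, did not pass, and 9 genes, such as Ins2, Calcr and Kcnk9, had at most 3 counts in every tumour.

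Of 14 genes that maintain or read the imprint, 12 were tested and 0 passed, against 3.63% of all genes tested, a share at which 0 of 12 is no result about the group (edgeR, 0 with an unadjusted p under 0.05, and 0 marked by DESeq2). Dnmt1, the maintenance methyltransferase and the most abundant of them, stood at 234 ± 29.1 CPM (SD, n = 4). Zfp57 itself was scarce, at 0.753, 0.577, 1.64 and 0.609 CPM, the widest spread among the 12, whereas Zfp445, which shares its role, had 135.7 to 199.9 CPM. Uhrf1, which brings Dnmt1 to newly replicated DNA, had 76.7, 67.4, 141 and 53.0 CPM, highest in tumour 3 (edgeR adjusted p = 1). Of 7 genes of de novo methylation and demethylation 6 were tested and 0 passed, again against 3.63% (edgeR, 0 with an unadjusted p under 0.05, and 0 marked by DESeq2). Tet3, a methylcytosine dioxygenase, was the most abundant at 169 ± 27.7 CPM (SD, n = 4), and Tet1 had the widest spread, from 2.70 CPM in tumour 4 to 12.2 CPM in tumour 1.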

How the data were processed

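Read counts per gene, as whole numbers without normalization, were deposited in 1 table for 4 poly-A libraries. The submitters' processing notes name FastQC, GRCm38 and mm10. The aligner, counter, annotation and strand setting were not given in the sources used here. Entrez gene numbers were matched to symbols in the RefSeq table of GRCm38.p6 (24480 of 28440 rows), and all rows stayed in the library sizes. Of the table's sample columns, 0 were left unused.

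The analysis used edgeR 4.0.16 (R 4.3.3). The filter was filterByExpr for 1 group, which asks for 10 counts, taken at the median library size, in each of the 4 libraries and for 15 in total, and scaling was by TMM. With 1 group there is no contrast and no quasi-likelihood test. A negative binomial model with an intercept alone was fitted per gene at the trended dispersion, the residual deviance was referred to a chi-square distribution, and p-values were adjusted by Benjamini-Hochberg over 15808 genes (threshold 0.05). The common biological coefficient of variation was 0.411. Log2 CPM used a prior count of 2. Run on counts simulated at that same trended dispersion, the test called few unchanged genes and missed most genes raised 4-fold in 1 library. Few calls of unchanged genes were built into that setting. It cannot show how the test treats genes whose dispersion lies off the trend. Pairs of libraries differed by a chi-square per degree of freedom of 110 to 325, far beyond counting error.

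Exon lengths and overlaps came from GENCODE M21 (GRCm38). Alternatives were Holm adjustment, RLE scaling, library size alone, a filter at a mean of 5 CPM, no count filter, the dispersion outliers of DESeq2 1.42.0, prior counts of 0.5 and 5, each tumour left out and, added after seeing the data, the count minimum in 1 library. The members and lists were chosen with earlier results of these data known. All 40 genes are named. Of each other list the rule named the genes past the test, the most abundant and the tested gene with the largest SD of log2 CPM, and other list genes were named after their values were seen. Among the further imprinted genes, older symbols were matched through RefSeq synonyms (Nespas and Phf17), and 1 was not matched.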

Additional observations from a re-analysis of the deposited data

Results flagged for a closer look

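Rasgrf1, which encodes a paternally expressed Ras exchange factor, had 75 counts in tumour 1 and 30, 32 and 35 in tumours 2 to 4. The gap between tumour 1 and the nearest other tumour took up 0.952 of the whole range of log2 CPM, above the critical value of Dixon's test for 4 samples, because the other 3 tumours nearly coincided. The fold from tumour 1 to the next was 2.04, and the gene did not pass the test across all genes (edgeR adjusted p = 1). This was the 1 gene so marked among 35 imprinted genes with at least 10 counts in some tumour, and chance marks about 1 in 20.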

How the results depend on the processing

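The 5 genes past the test (Mest, Grb10, H19, Peg10 and Usp29) were the same under RLE scaling and library size alone. The number past the test was 2 with Holm adjustment (Mest and Grb10), 1 by DESeq2 dispersion outliers (Mest), and 2 to 4 when 1 tumour was left out. With Holm adjustment the adjusted p was 0.0993 for H19, 0.117 for Peg10 and 1 for Usp29. With no count filter or with the count minimum in 1 library, 7 passed. Usp29 was lost, and Igf2, Ndn and Nnat, which were too scarce for the main test, were gained. The count minimum admits these through the tumours in which they were high, so its number supports no spread. With no count filter every gene with any count was kept, so they were not admitted in that way. All of them were near the floor in at least 1 tumour. With a mean of at least 5 CPM, which leaves Usp29 untested, the 5 were Igf2 (admitted through tumour 3), Mest, Grb10, H19 and Peg10. Without tumour 3, which held the muscle markers, Grb10 and Peg10 passed. For the further imprinted genes the number was 0 to 1 with 1 tumour left out and 0 by DESeq2. The numbers for imprint maintenance and for methylation and demethylation genes were 0 under every alternative run. The median log2 ratio of the highest to the lowest tumour was 1.58 with no count filter and 1.89 with the count minimum in 1 library, where scarcer genes enter, and 0.70 to 1.07 with 1 tumour left out. Other causes of these changes were not tested. Depth limits Dlk1, Rtl1, Magel2 and Nap1l5, each with at most 1 count per tumour, for which no difference was detectable at this depth. No paired analysis was possible because there is 1 group.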

Other observations

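The genes that flank the imprinted genes past the test were looked at by position, taking the 3 nearest tested genes on each side, a choice made after the values of the imprinted genes were seen. For Mest, H19, Peg10, Usp29 and Grb10, 0 of 6 flanking genes passed in each case (edgeR), against 3.63% of all genes tested, a share at which such counts are no result about these genes. Of these 30 genes, 6 had an unadjusted p under 0.05 (Egfr, Upp1, Peg3, Sgce, Pon3 and Syt8), and DESeq2 marked 0. The share of all genes under that unadjusted p was not taken, so the 6 are no result about flanking genes. Peg3 and Sgce are themselves among the imprinted genes followed. Mest stood 6.20 above the mean of the other tumours in log2 CPM in tumour 3, and its 6 flanking genes, from Klhdc10 to 2210408F21Rik, between -0.48 and 0.86. Grb10 stood 3.68 above in tumour 1, against -1.38 to 0.91 for its flanking genes. Of these Egfr, the epidermal growth factor receptor, was the highest, at 151, 103, 36.5 and 138 CPM. Cobl, an actin nucleator, had 67.8 to 76.9 CPM.

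For H19 the values were 2.38 in tumour 3 and -0.53 to 1.70 for the flanking genes, the highest being Syt8, at 0.376, 1.56, 5.24 and 6.28 CPM. Only tested genes were taken as flanking, which leaves out genes that were high in 1 tumour and nearly silent in another. Igf2, the other gene of the domain, was left out in this way and stood 7.0 above in tumour 3. The muscle marker Tnnt3, with 5, 1, 2882 and 10 counts in tumours 1 to 4, was not tested either and was not eligible as a flanking gene. Untested genes near H19 other than Igf2 were not looked at. The range given for the genes that flank H19 is thus that of tested genes only, and any link to the muscle markers was not tested. Among the genes that flank Peg10, its partner Sgce was the highest at 1.62, and Pon3, a paraoxonase, the lowest at -1.39. Beside Usp29 (2.99) the highest was Peg3 at 1.53, and the zinc finger genes Zfp28, Zfp78, Zfp954, Zfp773 and Zfp418 lay between -0.56 and 0.38. These are values of 4 tumours, and differences between a gene and its neighbours were not tested.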
